A study of Mus musculus with 908 samples.

Results

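Interferon-stimulated genes and the genes that carry interferon signals into the nucleus were followed through single tumour cells of mouse skin squamous cell carcinoma. The set was given by name and holds 40 of the 46517 gene rows in the deposited tables. It divides into 26 interferon-stimulated genes, most of which encode antiviral or immune effectors, and 14 genes for receptors, kinases, transcription factors and feedback inhibitors. All 40 symbols were found in the table from before therapy and in the table from after it.

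Cells were sorted into plates, 1 to a well, and sequenced full length by Smart-seq2, and levels are given as TPM, a length-normalised share of a library's transcripts. Tumours taken before therapy came from the strain TRE-HrasG12V;SBE-mCherry-PGK-rtTA3, in which a tetracycline-responsive promoter drives Hras with the G12V change, a SMAD-binding element drives mCherry as a reporter of TGF-beta signalling, and rtTA3 is the activator that the inducible promoter needs. Tumours taken after adoptive cell transfer, the infusion of immune cells as therapy, came from TRE-OVA;TRE-HrasG12V:PGK-rtTA3P2AmCherry, which adds inducible ovalbumin and an mCherry joined to rtTA3, so that mCherry reports TGF-beta only before therapy. All animals were of postnatal day 60 to 90, of mixed sex by the labels, and cells bearing CD31, CD45, CD117 or CD140a were gated out of every group.

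A gene counted as detected at 1 TPM or more, and a library was kept when it had 2000 detected genes or more. Before therapy these were reporter-positive cells (mCherry+, integrin α6+, CD34+, CD44+; 73 on plate CSC1 and 32 on plate CSC2), 15 CD44+ reporter-negative cells (α6+, CD34-), 91 CD44-negative α6+ cells (reporter-negative, CD34-) and 43 α6-negative cells (also negative for the reporter, CD34 and CD44). After transfer there were mCherry+ cells, 87 on plate OT2 and 90 on plate OT_B. The median number of genes per cell was 7760, 7222, 6810, 5521 and 6657 in that order of groups. The labels name no animal, so each group is 1 sample, no p-value or standard error is given, and exact Clopper-Pearson intervals on shares of cells (95%) cover counting error only.

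Markers of cell class and sex-linked transcripts divided some groups. All cells of the reporter-positive, CD44-negative and after-transfer groups had keratinocyte markers as their highest class. In the CD44+ gate 12 of 15 did, beside 1 fibroblast-like and 2 pericyte- or muscle-like cells, and in the α6-negative gate 26 of 43 did, beside 13 and 4 such cells. Over 10 leukocyte markers the summed mean ran from 1.58 to 6.56 TPM per group. Means of at least 1 TPM were seen for 3 of the 10 in reporter-positive, 2 in CD44+, 0 in CD44-negative, 4 in α6-negative and 1 in after-transfer cells. The highest sum in a single cell was 180.25, 22.26, 25.35, 63.46 and 86.55 TPM in that order, so some cells held leukocyte transcripts. The leukocyte genes Ptprc, Cd3e and Cd3g were listed at 0 in every cell of the 4 groups other than the reporter-positive cells, in which Cd3e and Cd3g were at 0. No cell of the reporter-positive, α6-negative or after-transfer groups had Xist without Y-linked transcripts. The CD44-negative gate held 42 cells with Xist and 45 with Y-linked transcripts, so it held cells of both sexes. In the CD44+ gate 12 cells had Xist, 2 had both kinds and 1 had neither. With no animal named, gate and animal cannot be told apart, also where cells of 1 sex-linked class are compared.

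The labels also conflict on some cells. Whole-profile correlation paired all 15 CD44+ libraries, 72 of the 73 on CSC1 and 26 of the 32 on CSC2 with a second library that carries the label after therapy, on plates OT_C and OT_D. Those 2 plates were left out, as were OT1 and OT_A, which repeat cells of OT_B and OT2. Which of the labels holds cannot be told from the files, so every value of the reporter-positive and CD44+ groups is that of libraries labelled as before therapy. By the same measure wells H2 and H10 of the CD44+ gate were repeats of 1 cell (r = 0.926), so its 15 libraries, called cells here, are at most 14 cells. Plate CSC1 and the α6-negative gate held 1 such pair each.

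Interferons are secreted proteins made when cells sense nucleic acids or when lymphocytes are activated. Type I interferons bind the receptor pair Ifnar1 and Ifnar2, whose kinases Jak1 and Tyk2 activate a complex with Stat2 and Irf9 that binds the interferon-stimulated response element (ISRE). Interferon gamma binds Ifngr1 and Ifngr2, whose kinases Jak1 and Jak2 signal to the gamma-activated site (GAS). Targets of both routes overlap, and in epidermal tumours they include antigen presentation genes.

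The promoter letters of several members are shown because members differ in which of the 2 elements they carry. Each stretch comes from the RefSeq promoter table for GRCm38.p6 and is written 5′ to 3′ in the direction of the gene. Capitals mark matches on either strand to GAAA, then 2 bases of any kind, then GAAA for an ISRE, or to TTCNNNGAA, which reads the same on both strands, for a GAS. The last letters of a GAS match can also open an ISRE match.

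Isg15 (ISRE; chr4:156200835-156200924, minus strand): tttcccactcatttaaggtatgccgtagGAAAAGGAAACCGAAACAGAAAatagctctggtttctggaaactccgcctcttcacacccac
Oas1a (ISRE; chr5:120907526-120907579, minus strand): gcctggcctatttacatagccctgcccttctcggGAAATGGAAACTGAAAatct
Ifit1 (ISRE; chr19:34640764-34640853, plus strand): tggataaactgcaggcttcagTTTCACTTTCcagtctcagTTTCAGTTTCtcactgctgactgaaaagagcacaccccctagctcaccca
Gbp2 (ISRE; chr3:142620564-142620653, plus strand): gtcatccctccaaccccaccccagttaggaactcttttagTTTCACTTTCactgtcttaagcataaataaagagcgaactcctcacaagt
Irgm1 (ISRE; chr11:48871421-48871484, minus strand): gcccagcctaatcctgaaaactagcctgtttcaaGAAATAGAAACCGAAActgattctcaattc
Igtp (ISRE; chr11:58199482-58199555, plus strand): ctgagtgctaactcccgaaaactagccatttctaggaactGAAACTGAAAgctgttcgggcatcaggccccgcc
Igtp (GAS; chr11:58199471-58199555, plus strand): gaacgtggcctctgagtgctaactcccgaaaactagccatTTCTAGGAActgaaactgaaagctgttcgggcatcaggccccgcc
Tgtp2 (GAS; chr11:49064245-49064333, minus strand): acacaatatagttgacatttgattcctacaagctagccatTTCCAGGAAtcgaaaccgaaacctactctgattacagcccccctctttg
Irf1 (GAS; chr11:53769884-53769972, plus strand): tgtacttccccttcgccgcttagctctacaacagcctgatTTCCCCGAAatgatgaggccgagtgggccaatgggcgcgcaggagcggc
Socs1 (ISRE; chr16:10785564-10785653, minus strand): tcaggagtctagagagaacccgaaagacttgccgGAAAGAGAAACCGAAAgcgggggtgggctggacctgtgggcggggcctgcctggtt

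The table holds 300 bases per start site, 250 before and 50 after it, for 20 of the 26 interferon-stimulated members and all 14 signalling members. An ISRE match stood in 14 of those 20 (70%) and in 2 of the 14 (14.3%, Stat2 and Socs1), against 3.99% of the 27025 genes in the table. All 6 members that encode interferon-inducible GTPases (Gbp2, Gbp3, Gbp7, Tgtp2, Irgm1 and Igtp) had one. A GAS match stood in 7 of the 20 (35%) and 4 of the 14 (28.6%), against 9.55% of all genes. Isg15 carried 3 overlapping ISRE matches, the first beginning 78 bases before the start site, and no GAS match. In Igtp and Tgtp2 a GAS match lay just ahead of an ISRE match, whereas Gbp2 and Irgm1 had an ISRE match only. These are letter matches and say nothing of which factor was bound in the cells.

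Interferon ligand genes were close to undetected in every group. Of 21 ligand genes looked up, among them Ifnb1 and Ifng, 17 were under 1 TPM in every cell used, and the highest group mean was 0.285 TPM, for Ifnk, the keratinocyte interferon, in the CD44+ gate. That mean came from 1 of 15 cells, at 4.27 TPM. Ifnk was seen in 1 further cell, of the CD44-negative gate, at 11.3 TPM. A single cell after transfer had Ifna5, at 20.4 TPM.

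The signalling members were found far more often, with Jak1 and Stat3 in nearly every cell and the 4 receptor genes in 39% to 80% of the cells of a group. Jak1, the kinase used by both interferon routes, was detected in 98.1% of reporter-positive cells, 15 of 15 CD44+ cells, 91 of 91 CD44-negative cells, 42 of 43 α6-negative cells and 99.4% of cells after transfer. Its mean levels in the same order were 25.4, 24.6, 33.2, 49.3 and 29.7 TPM. Stat3, which answers mainly to cytokines of the interleukin-6 family, was detected in at least 93% of cells in each group, with means of 24.2, 77.5, 36.2, 68.8 and 41.6 TPM. Irf3, the factor downstream of nucleic acid sensors, had means from 12.2 to 16.5 TPM. Means of Jak1, Irf3 and the kinase genes Jak2 and Tyk2 stood within 2-fold of each other in each comparison, except that Jak2 was lower in CD44-negative than in α6-negative cells (1.19 against 4.02 TPM, log2 fold -1.20).

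Among receptor genes, Ifngr1, which binds interferon gamma, had means of 9.80 TPM in reporter-positive, 28.6 in CD44+, 16.4 in CD44-negative, 29.2 in α6-negative and 14.1 TPM in after-transfer cells. It was detected in 55.8% to 80% of cells. Its partner Ifngr2 ran from 4.34 TPM after transfer to 15.7 TPM in α6-negative cells. Ifnar1 ran from 5.63 TPM after transfer to 16.4 TPM in the CD44+ gate. Ifnar2 ran from 4.76 to 22.7 TPM in the same 2 groups, and its CD44+ mean fell to 10.9 TPM over the 12 keratinocytes of that gate. Every receptor gene ranged from 0 to at least 36.4 TPM between cells of each group. That range is of single cells and does not measure the error of a mean.

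Outside the CD44+ gate, a cell had few of the interferon-stimulated members. The number of the 26 detected in a cell had a median of 13 (range 9 to 21) in the CD44+ gate. The median was 4 in reporter-positive cells (0 to 17), 4 in CD44-negative cells (0 to 22), 3 in α6-negative cells (0 to 10) and 4 after transfer (0 to 19). The lowest CD44+ cell was thus above the median of each other group, although the ranges overlap. At least 13 members were detected in 8 of 15 CD44+ cells (53.3%, interval 26.6% to 78.7%), in 7 reporter-positive cells (6.67%, 2.72% to 13.3%), 13 of 91 CD44-negative cells (14.3%, 7.83% to 23.2%), 0 of 43 α6-negative cells (upper bound 8.22%) and 15 cells after transfer (8.47%, 4.82% to 13.6%). Reporter-positive cells had the most genes per cell (median 7760) and α6-negative cells the fewest (5521). The part of depth in the counts of members was not tested. Within groups, the count of members rose with genes per cell in 4 of 5 groups (Spearman rho 0.37 to 0.48, a description) and had a rho of 0.00 in the CD44-negative gate.

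**Figure D1:**
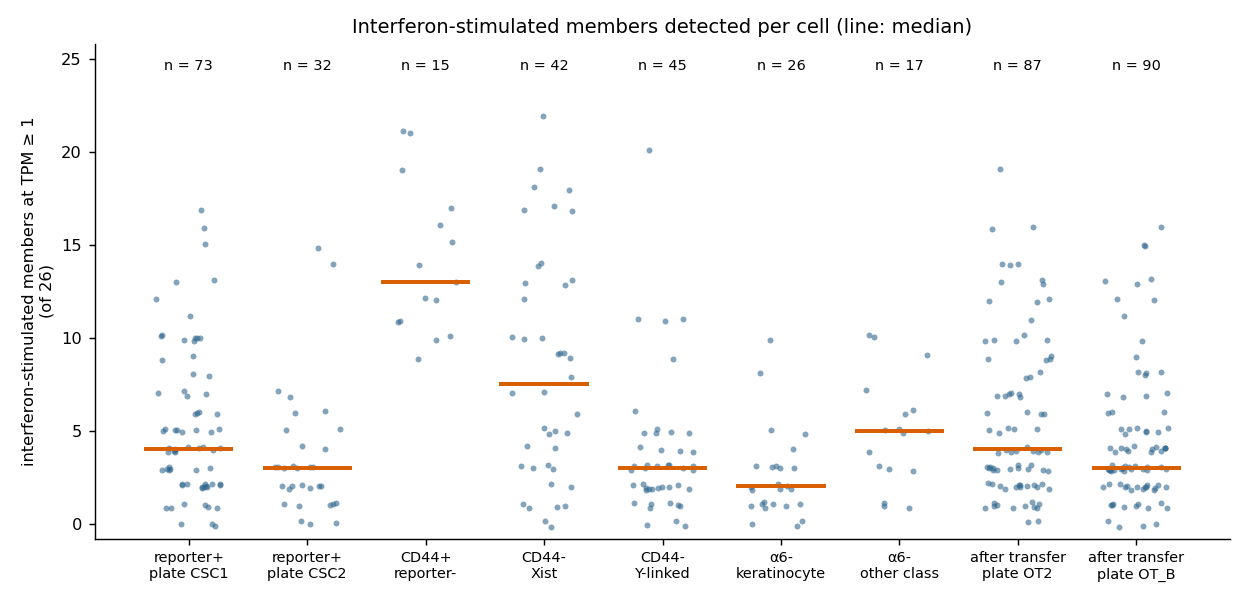
Number of the 26 interferon-stimulated members at a TPM of at least 1 in each cell (vertical axis), by gate or plate, with the CD44-negative gate split by sex-linked transcripts and the α6-negative gate by cell class. Points are cells with a small random shift, lines are medians: the 15 CD44+ cells lie between 9 and 21, and those of the CD44-negative gate with Xist (42) are spread from 0 to 22.

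Repeat libraries show how often a member detected in 1 library was missed in the other. A member missed in both is not counted. Over all pairs of libraries taken as repeats of 1 cell, a member of the 26 was detected in both libraries 1240 times, which was 80.1% of the times it was detected in either. By member the share differed, with 50% for Isg15 (12 times in both and 12 in 1 alone), 61.8% for Xaf1, 91.8% for Oasl2 and 92.6% for Trim25. For the 14 signalling members the share was 87% (2039 times). The share for the 26 also differed by plate. It was 77% over pairs of CSC1 with OT_C and 89.3% over pairs of the CD44+ plate with OT_D. Over pairs of OT1 with OT_B and OT2 with OT_A it was 81%. For Isg15 the share was 14.3%, 88.9% and 28.6% in that order, on few detections. Detections seen in 1 library alone had a median of 2.37 TPM, and those seen in both a median of 11.97 TPM (the higher value of the pair).

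A gene entered the fold comparisons when the mean of its 5 group means was at least 1 TPM, which 12133 genes passed. All 14 signalling members and 20 of the 26 interferon-stimulated members passed. Ifit1, Ifit2, Ifit3, Mx1, Mx2 and Rsad2 did not. Folds are log2((mean TPM + 1)/(mean TPM + 1)), which understates weak genes, and a gene was counted as higher or lower from 2-fold on. Shares over all genes tested are not given for comparisons within 1 sex-linked class or 1 cell class. Counts of members there have no such share to be set against.

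**Figure D2:**
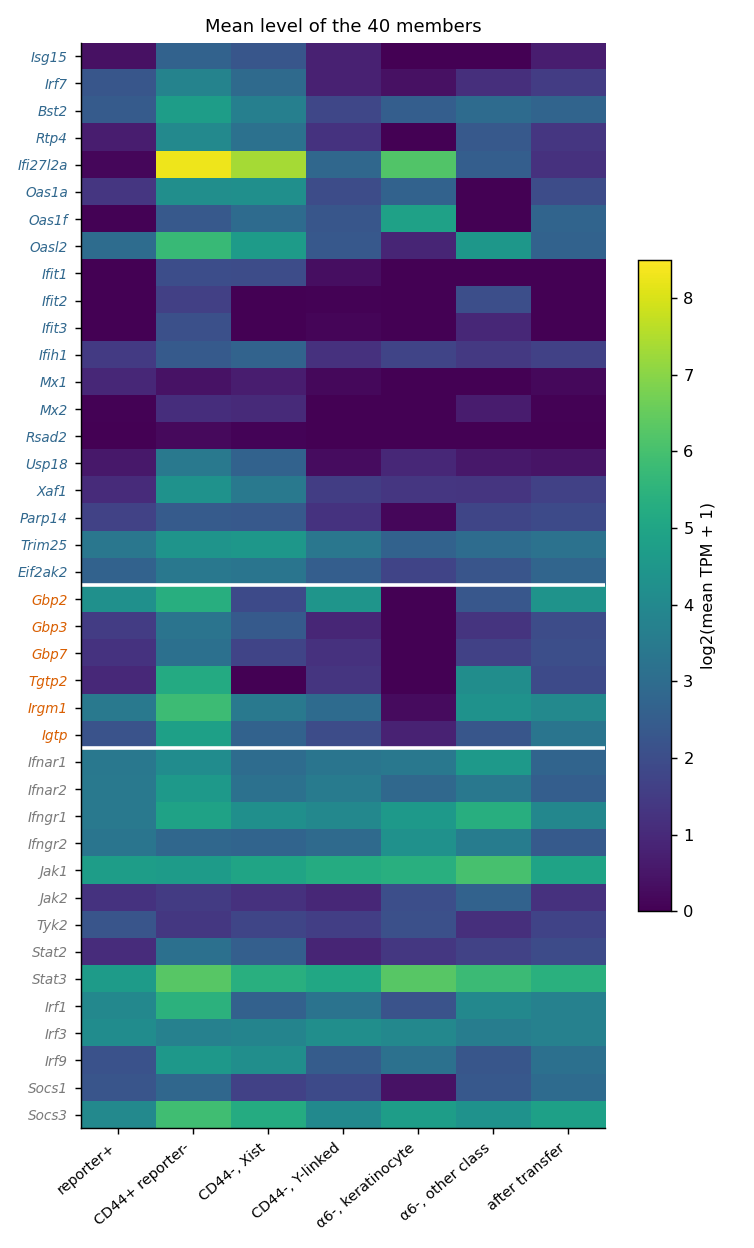
Mean TPM of the 40 members on a log2(mean TPM + 1) scale (colour) in 7 sets of cells (columns), with GTPase members in orange, other interferon-stimulated members in blue and signalling members in grey lettering. Ifi27l2a is bright in the CD44+ gate, in CD44-negative cells with Xist and in α6-negative keratinocytes, and near 0 in reporter-positive cells.

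In the CD44+ reporter-negative gate, 13 of the 20 interferon-stimulated members were higher than in CD44-negative cells and 0 were lower, with a median log2 fold of 1.57, whereas 13.5% of all genes tested were higher, 5.37% were lower and their median was 0.03. Over keratinocytes with Xist only (9 against 42, chosen after seeing the data), the median was 0.48, with 3 members higher (Rtp4, Oasl2 and Bst2) and 1 lower (Gbp3). No share over all genes tested is given for that subset, so its counts are not read as a result about the members. Ifi27l2a, which encodes a small mitochondrial and nuclear-envelope protein, was among the 13 members higher over all cells. It was detected in 11 of 15 CD44+ cells (73.3%, 44.9% to 92.2%) with a median of 145.3 TPM and a highest value of 1981 TPM. In CD44-negative cells it was detected in 25 of 91 (27.5%, 18.6% to 37.8%), with a median of 0 and a highest value of 1234 TPM. The means were 314.03 and 79.3 TPM, and 42.1% of the CD44+ sum lay in 1 cell.

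Oasl2, a member of the oligoadenylate synthetase family of RNA-sensing proteins, was detected in all 15 CD44+ cells (lower bound 78.2%, or 76.8% with wells H2 and H10 counted once), from 7.35 to 140.1 TPM with a median of 44.5 TPM. It was detected in 21 of 91 CD44-negative cells (23.1%, 14.9% to 33.1%). Rtp4, a chaperone of membrane receptors, was found in 13 of 15 CD44+ cells against 23 of 91 (means 14.9 and 4.37 TPM). Oas1a, which makes the second messenger that activates RNase L, was found in 13 of 15 against 36 of 91 (17.6 and 10.1 TPM), under 2-fold, and had means of 18.5 and 17.7 TPM in Xist cells. Bst2, which tethers budding virus to the cell surface, had means of 25.5 and 7.995 TPM. Irf7, the factor that amplifies type I interferon production, had means of 12.9 and 3.44 TPM, and the pro-apoptotic Xaf1 19.4 and 5.83 TPM. Usp18, the protease that removes Isg15 from proteins and dampens the receptor, had means of 9.86 and 2.62 TPM. Isg15 itself, the ubiquitin-like modifier, was detected in 9 of 15 against 19 of 91 (5.31 and 2.19 TPM, log2 fold 0.99).

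The 6 GTPases, which act on vacuoles that hold pathogens, had higher means in the CD44+ gate, with log2 folds from 1.49 for Gbp3 to 4.39 for Tgtp2. These folds rested on few cells. In keratinocytes only Gbp3 had a log2 fold of -0.51, and among libraries of 6000 to 8000 genes Gbp2 had one of -0.76. One fibroblast-like cell (well H1) had 396.2 TPM of Gbp2, 385.9 TPM of Tgtp2, 378.5 TPM of Irgm1 and 280.2 TPM of Igtp, and held 68.1% of the gate's Gbp2. Over the 12 keratinocytes the mean of Gbp2 was 15.3 TPM, against 132.8 TPM over the other 3 cells, and that of Tgtp2 was 6.34 against 152.3 TPM. Ifi27l2a went the other way, at 384.2 and 33.4 TPM. Irgm1 was the GTPase seen in most cells, in 14 of 15 (93.3%, 68.1% to 99.8%), and had a mean of 33.02 TPM in keratinocytes.

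**Figure D3:**
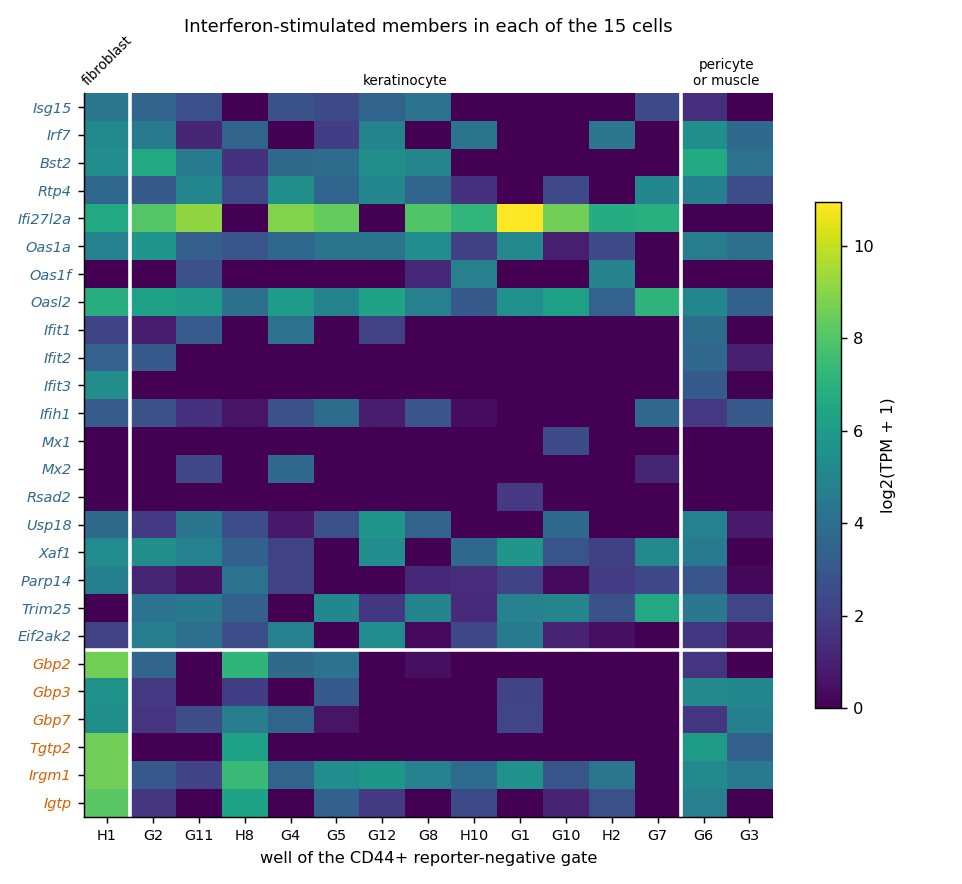
Each of the 26 interferon-stimulated members (rows, GTPases in orange below the line) in each of the 15 CD44+ reporter-negative cells (columns, by well and cell class), coloured by log2(TPM + 1). Oasl2 is above 0 in all 15 cells, while Gbp2 and Tgtp2 reach 396.2 and 385.9 TPM in well H1 and are under 1 TPM in most keratinocytes.

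Ifit1, Ifit2, Ifit3, Mx1, Mx2 and Rsad2, antiviral genes known to rise sharply with type I interferon, stayed low in the CD44+ gate. Their means there ran from 0.169 to 3.25 TPM. Ifit1 was detected in 5 of 15 cells, Ifit2 in 3, Mx2 in 3, Ifit3 in 2, neither of them a keratinocyte, and Mx1 and Rsad2 in 1 each. Mx2 is a polymorphic pseudogene in the annotation. Ifit1, Ifit2, Ifit3 and Rsad2 were listed at 0 in every reporter-positive cell.

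Of the signalling members, 7 of 14 were higher in CD44+ than in CD44-negative cells and 0 were lower. Among all genes tested, 13.5% were higher and 5.37% lower. The 7 signalling members are named here. They were Irf1, the transcription factor induced by interferon gamma (42.8 against 6.59 TPM, log2 fold 2.53), the receptor gene Ifnar2, Stat2, Stat3, Irf9, and the feedback inhibitors Socs1 and Socs3. Socs3 had means of 58.04 and 25.3 TPM and was detected in 15 of 15 and 82 of 91 cells. Stat2 was detected in 14 of 15 cells (7.75 TPM) against 32 of 91 (2.74 TPM). In a list of 70 other interferon pathway genes, 51 passed the filter, and 30 were higher and 0 lower. Among them the secreted glycoprotein gene Lgals3bp had means of 65.3 and 16.5 TPM. The chemokine gene Cxcl10 had means of 65.4 and 5.98 TPM, with 759 TPM in 1 of the CD44+ cells. Of 14 genes for MHC class I and its peptide supply, 7 were higher and 0 lower, with B2m at 759.9 and 302.6 TPM. Counts of both lists are over all 15 CD44+ cells, of which 3 were not keratinocytes. They are not given within a single cell class or sex-linked class.

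Both cell class and sex-linked class moved with these differences. With keratinocytes only, the median of the 20 members was 0.95. With Xist cells only (12 against 42) it was 0.98, and no share over all genes tested is given for these cells. Of the 20 members, 10 were higher and 0 lower. Those 10 were the 6 GTPases, Bst2, Oasl2, Irf7 and Rtp4. The 3 CD44+ cells that were not keratinocytes were all among these 12, and held 100% of their Tgtp2, 92.6% of Igtp, 91.7% of Gbp3, 90.7% of Gbp2, 79.7% of Gbp7 and 71.3% of Irgm1. In the other 9, keratinocytes with Xist, Tgtp2 was listed at 0, as in the 42 CD44-negative cells. Gbp3 (1.14 against 4.36 TPM, -1.32), Igtp (2.71 against 5.37 TPM, -0.78) and Gbp7 (-0.14) had lower means in those 9 cells than in the 42, and Irgm1 (0.93) and Gbp2 (0.55) were within 2-fold. Ifi27l2a was not among them: its means were 195.5 and 161.3 TPM in Xist cells of the 2 gates, a log2 fold of 0.28. Of the signalling members, Irf1 (1.85) and Ifnar2 (1.49) were higher in Xist cells. In the 9 Xist keratinocytes Irf1 had a mean of 14.3 TPM (1.296), against 42.7 TPM over all 12 keratinocytes of the gate, and Ifnar2 one of 9.25 TPM (0.18). Socs1 was higher (1.195) and Ifngr2 lower (-1.81) in those 9.

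Reporter-positive cells were then set against the CD44+ gate. Of the 20 interferon-stimulated members, 0 were higher and 17 were lower, with a median log2 fold of -2.30, beside 11.3% higher and 13.6% lower among all genes tested and a median of 0.00. Isg15, 1 of the 17 (-2.29), had a mean of group means of 1.67 TPM and passed the filter only through its mean in the CD44+ gate. Its fold against that gate is therefore not independent of the filter. Only 1 reporter-positive cell had Ifi27l2a (0.952%, 0.0241% to 5.19%), at 11.2 TPM, a log2 fold of -8.15, the lowest of all 12133 genes tested. Rtp4 was detected in 10 reporter-positive cells and had a mean of 0.593 TPM (log2 fold -3.31), Xaf1 one of 1.07 TPM (-3.30), Usp18 one of 0.462 TPM (-2.89), and Oas1a one of 1.52 TPM (-2.88). The 3 members within 2-fold were Ifih1, Parp14 and the RNA-dependent kinase Eif2ak2. Of the 14 signalling members 7 were lower, led by Irf9 (3.41 against 22.4 TPM, -2.41) and Stat2 (1.12 against 7.75 TPM, -2.05), and 0 were higher. The CD44+ gate held Xist cells and the reporter-positive group Y-linked cells, so no comparison within 1 sex-linked class could be made here. With keratinocytes only the median was -1.76, Gbp2 and Gbp3 had log2 folds of 0.23 and 0.23, and among libraries of 6000 to 8000 genes Gbp2 had one of 2.33.

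Against the CD44-negative gate the same reporter-positive cells differed less. Of the 20 members, 0 were higher and 7 were lower, with a median of -0.64, beside 8.06% higher and 4.09% lower among all genes tested and a median of 0.05. The 7 were Ifi27l2a (-6.18), Oas1f (-2.56), Oas1a (-2.13), Rtp4 (-1.75), Xaf1 (-1.72), Usp18 (-1.31) and Isg15 (-1.30). None of the GTPases differed by 2-fold, and their median was 0.03, against -1.08 for the other 14 members. Of the signalling members, Irf1 was higher (14.7 against 6.59 TPM, 1.05) and Irf9 lower (3.41 against 10.5 TPM, -1.38). When only Y-linked cells were compared, 99 against 45, the median became 0.13 and the lower members were Ifi27l2a (-2.69) and Oas1f (-2.22), while Irf7 was higher (1.43). Oas1f, a relative of Oas1a on the same stretch of chromosome 5, was seen in 2 reporter-positive cells (1.90%, 0.232% to 6.71%) and 17 of 91 CD44-negative cells (18.7%, 11.3% to 28.2%).

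The CD44-negative gate is where the sex-linked split can be read directly, since cells of both kinds were sorted by 1 gate. The median number of members detected was 7.5 in the 42 Xist cells and 3 in the 45 Y-linked cells, with median gene numbers of 6803 and 6810. At least 13 members were detected in 12 of 42 Xist cells (28.6%, 15.7% to 44.6%) and in 1 of 45 Y-linked cells (2.22%, 0.0562% to 11.8%). By mean level, 13 of the 20 members were higher in Xist cells and 2 were lower, with a median log2 fold of 1.497, beside 4.13% higher, 3.06% lower and a median of 0.00 over all genes tested.

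Most of the higher members lay outside the GTPases, where 12 of 14 were higher, with a median of 1.89. Ifi27l2a was detected in 17 of 42 Xist cells and 7 of 45 Y-linked cells, with means of 161.3 and 6.18 TPM (log2 fold 4.50). Usp18 was detected in 14 and 2 cells (2.40), Oasl2 in 14 and 6 (2.33), Oas1a in 26 and 9 (2.24), Irf7 in 13 and 5 (2.17), Rtp4 in 21 and 2 (1.92) and Xaf1 in 17 and 5 (1.92). Ifih1, the sensor of long double-stranded RNA also called MDA5, was detected in 24 and 10 cells (1.495). Trim25, a ubiquitin ligase of the RIG-I pathway, was common in both, in 39 and 35 cells, with means of 21.7 and 9.45 TPM. Ifit1 was detected in 7 of 42 and 1 of 45 cells, and Ifit2 and Ifit3 in 0 and 1.

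Of the GTPases, 5 of 6 were detected in more Xist than Y-linked cells. The share of all genes detected in more Xist cells is not given, so that count is not read as a result about the members. At least 3 of the 6 were detected in 23.8% of Xist and 6.67% of Y-linked cells. Irgm1 was detected in 24 of 42 and 11 of 45 cells, Gbp7 in 11 and 6, and Igtp in 9 and 4. Mean levels of Gbp2 and Tgtp2 went the other way. Gbp2 had a mean of 2.77 TPM in Xist cells and 20.5 TPM in Y-linked cells (log2 fold -2.51), although it was detected in 8 of 42 and 6 of 45 cells. A single Y-linked cell with 440.8 TPM held 47.8% of the Y-linked sum. Tgtp2 was listed at 0 in all Xist cells and found in 1 Y-linked cell, at 67.3 TPM. Gbp3 was higher in Xist cells (4.36 against 0.895 TPM), and Gbp7, Irgm1 and Igtp were within 2-fold. On the mean of log2(TPM + 1) over cells, which weights single high cells less, the median of the 20 members was 0.94.

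Of the signalling members, 3 of 14 were higher in Xist cells: Irf9 (17.5 against 4.59 TPM, 1.73), Stat2 (4.91 against 0.843 TPM, 1.68) and Socs3 (36.7 against 15.3 TPM, 1.21). These include Stat2 and Irf9, partners in the complex that binds the ISRE. Receptors and kinases lay between -0.34 and 0.29. Of the 14 genes for MHC class I, 4 were higher and 0 lower, with B2m at 444.3 and 163.3 TPM. Among all genes tested, 4.13% were higher in Xist cells and 3.06% lower. Across cells of the gate the number of members detected ran with summed MHC class I TPM (Spearman rho 0.79 over 42 Xist cells and 0.51 over 45 Y-linked cells, a description within 1 plate). Animal, sex and tumour cannot be told apart in this split.

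**Figure D4:**
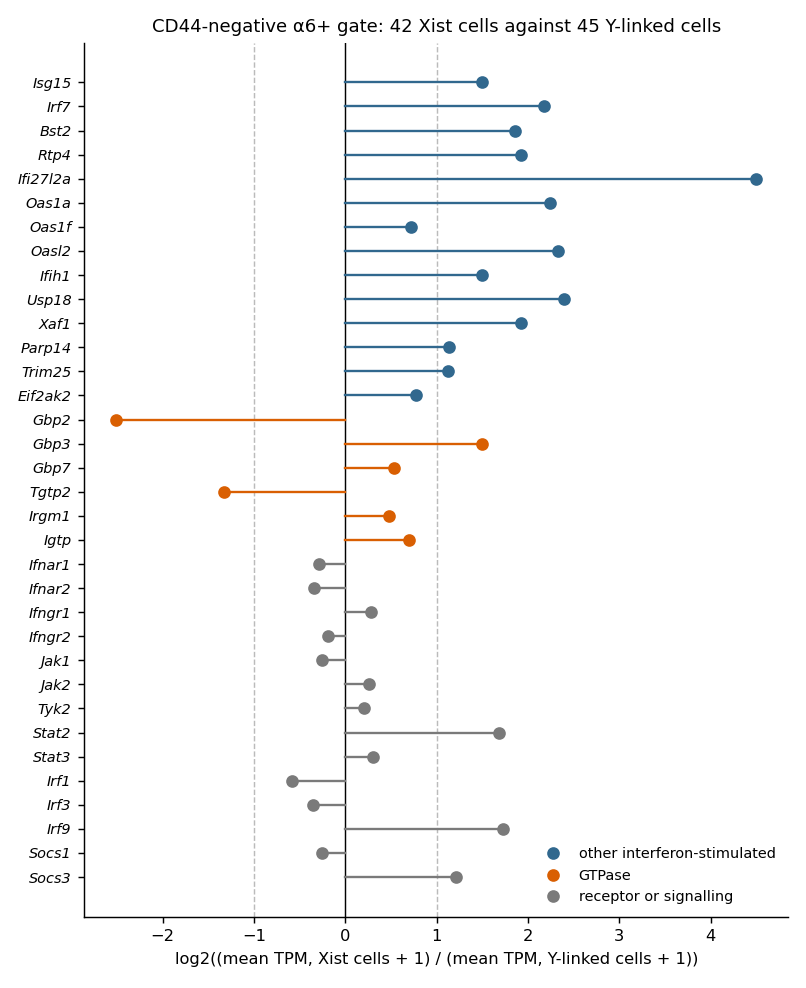
Log2 fold of mean TPM + 1 in Xist cells over Y-linked cells of the CD44-negative α6+ gate (horizontal axis), for the 34 members that passed the filter; dashed lines mark 2-fold. Interferon-stimulated members other than GTPases lie to the right, up to 4.50 for Ifi27l2a, signalling members run from -0.59 to 1.73, Gbp2 lies at -2.51, and Tgtp2 is listed at 0 in all Xist cells.

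The α6-negative gate had the lowest counts. Of the 20 members, 10 were higher in CD44-negative than in α6-negative cells and 2 were lower, with a median of 0.98, beside 8.65% higher and 21.2% lower among all genes tested and a median of -0.21. Isg15 was listed at 0 in all 43 α6-negative cells, which by counting error alone allows a share of up to 8.22%. Missed detection is not part of that bound. The 2 lower members were Oas1f (5.06 against 16.8 TPM, -1.56) and Tgtp2 (0.750 against 6.75 TPM, -2.15). In Y-linked cells only, 45 against 39, the median was -0.03, with 1 member higher (Gbp2, 2.97) and 3 lower. The 3 were Ifi27l2a (6.18 against 50.4 TPM, -2.84), Tgtp2 (-1.75) and Oas1f (-1.46), and Rtp4, Oas1a, Irf7 and Usp18 had log2 folds from -0.59 to -0.03. Libraries of the α6-negative gate were the shallowest, at 5521 genes.

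Keratinocytes and stromal-like cells of the α6-negative gate differed in which members they had. The 26 keratinocytes had Oas1f in 10 cells (38.5%, 20.2% to 59.4%; mean 27.8 TPM) and Ifi27l2a in 4 (72.4 TPM). In 23 of the 26 no GTPase was detected, and Gbp2, Gbp3, Gbp7 and Tgtp2 were listed at 0 in all of them. The 17 fibroblast- and pericyte- or muscle-like cells had Irgm1 in 9 cells (18.9 TPM) and Oasl2 in 6 (21.8 TPM), and Oas1f and Oas1a at 0 in all. With keratinocytes only, the comparison of the CD44-negative with the α6-negative gate gave a median of 1.42, and Tgtp2 had a log2 fold of 0.80 in place of -2.15.

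After transfer, 3 of the 20 interferon-stimulated members were higher than in reporter-positive cells and 0 were lower, with a median of 0.38, beside 2.33% higher and 7.13% lower among all genes tested and a median of -0.19. Oas1f led, detected in 30 cells after transfer (16.9%, 11.7% to 23.3%; highest 115.8 TPM) against 2 reporter-positive cells (highest 1.65 TPM), with means of 5.63 and 0.0296 TPM and a log2 fold of 2.69. It was found on both plates, in 14 of 87 cells of OT2 and 16 of 90 of OT_B. Igtp was detected in 42 (23.7%, 17.7% to 30.7%) and 15 cells (14.3%, 8.22% to 22.5%), with means of 8.79 and 3.54 TPM (1.11). Ifi27l2a was found in 6 cells and 1 cell (1.34 and 0.107 TPM). Isg15 was found in 8 cells (4.52%) and 7 cells (6.67%), and Bst2 in 57 cells (32.2%) and 34 cells (32.4%). Of the signalling members Irf9 was higher (7.83 against 3.41 TPM, 1.003), and Ifnar2 (4.76 against 9.94 TPM) and Ifngr2 (4.34 against 8.95 TPM) had log2 folds of -0.92 and -0.90. The median was 1.11 without plate CSC1, and the strains of the 2 groups differ, so therapy, strain and animal cannot be told apart.

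Against the CD44-negative gate, 1 of the 20 members was higher after transfer and 7 were lower, with a median of -0.44, beside 3.03% higher and 3.96% lower among all genes tested and a median of -0.11. This comparison shares its after-transfer cells with the previous one and its CD44-negative cells with others above. The higher member was Tgtp2 (1.09). The 7 lower were Ifi27l2a (-5.10), Oas1a (-1.49), Usp18 (-1.41), Oasl2 (-1.17), Xaf1 (-1.12), Rtp4 (-1.08) and Isg15 (-1.003). The GTPases had a median of 0.80 and the other members one of -0.89. In Y-linked cells only, the median was 0.31 and Ifi27l2a alone was lower (-1.70), while Igtp (1.28), Irgm1 (1.07) and Gbp3 (1.04) were higher. Among signalling members Socs1 (1.06) and Stat2 (1.02) were then higher, and 0 were lower.

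**Figure D5:**
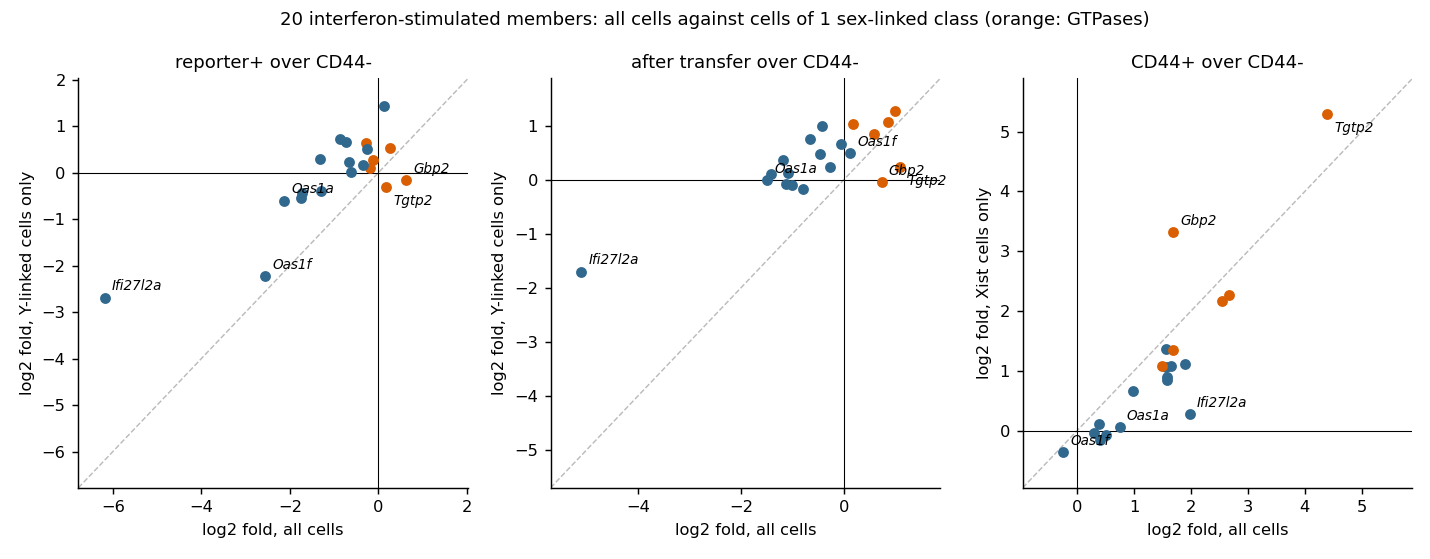
Log2 folds of the 20 interferon-stimulated members over all cells (horizontal axes) against folds over cells of 1 sex-linked class (vertical axes) in 3 comparisons with the CD44-negative gate, GTPases in orange; the dashed line marks equal values. In Y-linked cells most members sit near 0 and Ifi27l2a stays lowest, at -2.69 and -1.70. In Xist cells every GTPase is at least 2-fold higher in the CD44+ gate, as are some other members. Its 3 cells that were not keratinocytes held 71.3% or more of each GTPase.

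The GTPases were found together in a minority of reporter-positive and after-transfer cells. Gbp2 was present in 35 reporter-positive cells (33.3%, 24.43% to 43.2%) and 56 cells after transfer (31.6%, 24.9% to 39%), with highest values of 426.5 and 509.4 TPM. At least 3 of the 6 were detected in 17 and 40 cells, and none in 51 and 84. Of the 56 cells after transfer with Gbp2, 36 also had Gbp7, 30 had Gbp3 and 30 had Igtp. Of the cells without it, 2 had Gbp7, 1 had Gbp3 and 12 had Igtp. Before therapy, of 35 reporter-positive cells with Gbp2, 14 had Igtp and 11 had Gbp3, and of 70 without it 1 had each. Irf1 was detected in 32 of those 35 cells and 28 of those 70, and Oasl2 in 16 and 6. Stat3 was detected in 33 of 35 and 67 of 70, so nearly everywhere, and its detection could not divide the cells.

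Other members were also detected in a larger share of cells with Gbp2 after transfer. Oasl2 was detected in 28 of the 56 (50%) and 10 of the others (8.26%), Irf1 in 39 (69.6%) and 38 (31.4%), and Irf9 in 41 (73.2%) and 70 (57.9%). Isg15 was detected in 7 (12.5%) and 1 (0.826%), Usp18 in 7 and 0, and Ifi27l2a in 5 and 1. Across cells the number of GTPases detected ran with the number of other interferon-stimulated members in each group (Spearman rho 0.31 to 0.64, a description). Among antigen presentation genes, the immunoproteasome gene Psmb9 was detected in 52 of 56 cells with Gbp2 (92.9%) and 56 without it (46.3%), and Psmb8 in 55 (98.2%) and 67 (55.4%). The number of GTPases detected ran with summed MHC class I TPM at a Spearman rho of 0.57 over reporter-positive cells and 0.57 over cells after transfer, a description. Cells with Gbp2 also had more genes detected, with medians of 7987 against 7544 in reporter-positive cells and 6880 against 6498 after transfer. The part of depth in these counts was not tested. Gbp2, Gbp3 and Gbp7 lie next to each other on chromosome 3 (Gbp2 at chr3:142620602-142638008), and Irgm1, Igtp and Tgtp2 lie on chromosome 11. The Gbp, Oas1, Ifit3 and Tgtp families hold close copies, and how reads shared between copies were assigned was not stated in the labels or notes.

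Plates of 1 group differed as well. Between the reporter-positive plates, 7 of the 20 members were higher on CSC1 and 1 was lower, beside 5.02% and 6.25% of all genes tested. Of the GTPases 5 of 6 were higher on CSC1, with a median of 1.499. Gbp2 was detected in 30 of 73 cells of CSC1 (41.1%, 29.7% to 53.2%) and 5 of 32 of CSC2 (15.6%, 5.28% to 32.8%). The lower member was Oasl2, whose CSC2 mean of 13.8 TPM rested on a cell with 418.2 TPM. Between the plates after transfer, 2 of the 20 were higher on OT2 (Bst2, 1.02, and Tgtp2, 1.56) and 0 were lower, beside 3.51% and 0.824%.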

How the data were processed

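The deposited values were TPM per gene and well, made by the authors and held in 1 table per therapy label. Bowtie2 2.2.9, RSEM 1.2.30 and mm10 are named in the submitters' processing notes, and how multi-mapping reads were handled is not stated there. For 17 wells the deposited column held a single row above 0, and these wells were left out as a value of another kind. TPM keep no read depth, and the number of genes detected (1 TPM or more) was used in its place. Ribosomal rows took 66.1% to 76.4% of TPM by plate median, and all other TPM are shares of the rest.

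A library was kept when 2000 or more genes were detected, which left 431 of 554 columns. Repeat libraries of a cell were found by Pearson correlation of log2(TPM + 1), as mutual best matches (margin 0.05) or with r of at least 0.88. Cell class and sex-linked class came from marker lists. Folds used group mean TPM with a pseudocount of 1, over genes whose 5 group means averaged at least 1 TPM, and 2-fold was the limit for a call. Members at 4-fold or with a mean above 20 TPM in a group were given in full. With no animal named, each condition was 1 sample and no test was run. Members and lists were chosen with earlier results of these data known. Python 3.11.15, numpy 2.4.6, pandas 2.3.3, scipy 1.17.1 and matplotlib 3.10.9 were used, and the fold step was tested on simulated data. The simulation used genes with a mean of at least 20 TPM, 4-fold changes and many redrawn cells of 1 gate. Weaker members, 2-fold changes and groups of few cells were not covered by it. Alternatives covered the pseudocount, filters, detection limit, depth, cell class, sex-linked class, repeats and plates.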

Additional observations from a re-analysis of the deposited data

How the results depend on the processing

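Of 98 alternative values for the medians and the members detected per cell, 82 stayed close to the value reported and 16 moved. For the median of the 20 interferon-stimulated members, reporter-positive over CD44+ cells gave -0.86 with a pseudocount of 10 TPM, -1.63 with the mean of log2(TPM + 1) and -1.14 with that mean over keratinocytes only, chosen after seeing the data. CD44+ over CD44-negative cells gave 0.71 with a pseudocount of 10, 0.95 in keratinocytes, 0.98 in Xist cells and 0.48 in Xist keratinocytes, chosen after seeing the data. CD44-negative over α6-negative cells gave 0.26 with a pseudocount of 10, and Xist over Y-linked cells gave 0.43. In Y-linked cells only, reporter-positive over CD44-negative gave 0.13, CD44-negative over α6-negative -0.031 and after transfer over CD44-negative 0.31. Leaving out 1 plate at a time gave -2.60 to -2.27 for reporter-positive over CD44+, -1.07 to -0.59 for reporter-positive over CD44-negative, 0.10 to 1.11 for after transfer over reporter-positive and -0.66 to -0.32 for after transfer over CD44-negative. At a detection limit of 5 TPM, the median count of members per cell was 2 in reporter-positive, CD44-negative and after-transfer cells.

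Among members at least 2-fold different in a comparison, 21 values changed sign. Members within 2-fold were not followed for a change of sign. For reporter-positive over CD44+ these were Gbp2 (2.33) and Irf1 (0.081) in libraries of 6000 to 8000 genes, Gbp2 (0.23) and Gbp3 (0.23) in keratinocytes, and Ifnar2 (0.29) in keratinocytes with the mean of log2(TPM + 1). For CD44+ over CD44-negative they were Gbp2 (-0.76) and Irf9 (-0.62) at 6000 to 8000 genes, Gbp3 (-0.51) in keratinocytes, Gbp3 (-1.32), Gbp7 (-0.14) and Igtp (-0.78) in Xist keratinocytes, and Ifnar2 (-0.065) in keratinocytes with the mean of log2(TPM + 1). In Y-linked cells they were Usp18 (0.30) for reporter-positive over CD44-negative, Irf7 (-0.027), Rtp4 (-0.24), Oas1a (-0.034) and Usp18 (-0.59) for CD44-negative over α6-negative, and Rtp4 (0.12), Oasl2 (0.37) and Usp18 (0.10) for after transfer over CD44-negative. Tgtp2 for CD44-negative over α6-negative was 0.80 in keratinocytes. The cause was not tested. The number of members called moved too, from 9 to 21 lower for reporter-positive over CD44+, 1 to 12 lower for reporter-positive over CD44-negative, 3 to 15 higher for CD44+ over CD44-negative, 0 to 13 higher for CD44-negative over α6-negative, 0 to 11 higher for after transfer over reporter-positive, 1 to 9 lower for after transfer over CD44-negative and 3 to 18 higher for Xist over Y-linked cells. No paired analysis was possible because the labels number wells and not animals, and each condition was 1 sample. A comparison of reporter-positive with CD44+ cells within 1 sex-linked class was not run, as the groups share none.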
